A study of Bos taurus with 6 samples.

Results

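Many of the genes described here write, remove or read histone acetylation or move nucleosomes. Others, RBBP8 among them, are members by symbol only and have other known roles. All were taken by gene symbol from the array's annotation. The symbols were those of histone deacetylases (HDAC), sirtuins (SIRT) and lysine acetyltransferases (KAT), and of the families RBBP, ING, CHD and ARID with a number. Symbols that start with SMARC, YEATS, MORF4L or MTA were also taken. This gave 98 probes of 65 genes, among 43794 gene probes of which 21790 carried a symbol. This set, with RBBP4, RBBP8 and YEATS4 at its head, was chosen on measured values: an earlier look at the ratio of cetrorelix to control in these arrays had placed those 3 genes low. All values of that ratio below therefore describe the genes and test nothing about them.

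The treated samples were cumulus cells of Holstein cows that received follicle-stimulating hormone (FSH) over 3 days and cetrorelix at 12 mg per day for 5 days, starting on day 2 of FSH. The controls were cumulus cells of cows with the same stimulation and no cetrorelix, and in both the last FSH injection lay 68 h before recovery. Cetrorelix, a blocker of the gonadotropin-releasing hormone receptor, lowers luteinizing hormone secretion. The labels count 6 stimulated cows and do not tie cows to replicates. There were 3 biological replicates, each on 2 arrays with swapped dyes (6 arrays in all), with the 3 arrays of one dye orientation on one slide and the other 3 on another. Effects of the slide and of the dyes therefore cannot be told apart. Log2 ratios are given as cetrorelix over control after averaging each replicate's 2 arrays, and errors are the SD over the 3 replicates.

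Acetylation of histone tails loosens chromatin and is laid down by acetyltransferase complexes such as TIP60/NuA4, HBO1 and SAGA. Deacetylases of the HDAC1/HDAC2 type take it off inside the SIN3, NuRD and CoREST complexes, while sirtuins use NAD. SWI/SNF, ISWI and CHD remodellers use ATP to slide, space or evict nucleosomes. Cumulus cells are granulosa-lineage cells that surround the oocyte, and the gonadotropin response of this lineage is known to involve histone modification at steroidogenic genes.

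The arrays differed in quality and between slides. The share of probes above background differed by dye. In the cetrorelix channel it was 40.9% to 54.0% with cetrorelix in Cy5 and 69.3% to 70.9% with cetrorelix in Cy3. In the control channel it was 54.8% to 66.7% with the control in Cy5 and 62.2% to 69.7% with the control in Cy3. The lowest share was on the array of replicate 2 with cetrorelix in Cy5. Across tested probes, the 2 arrays of a replicate correlated at 0.0788 in replicate 1, 0.258 in replicate 2 and -0.127 in replicate 3. Arrays of the same slide correlated between 0.273 and 0.667. All 13 cumulus and granulosa markers were tested, and 9 of them were above background on every array in both conditions. Of the oocyte markers, KPNA7 was above background on every array in both conditions, while GDF9, ZP4 and ZAR1 were above it on 0 arrays. Of the theca and stroma markers, ACTA2, PDGFRA and COL1A1 were above background on every array in both conditions, while DCN and COL1A2 were above it on 0 arrays. The cumulus and granulosa markers had a median log2 ratio of -0.08 with values from -0.44 for GJA1 to 1.43 for AMH. AMH, GATA4 (1.07) and INHA (0.68) were higher on 6 of 6 arrays and BMPR1B (-0.39) was lower on 6 of 6 arrays. The part of these markers in the values below was not tested. The tested markers of other cells had medians of 0.07 for leukocytes (6 of 9 listed), -0.04 for endothelium (7 of 9) and 0.05 for oocyte (4 of 10). Those of theca and stroma had 0.03 (6 of 11) and those of erythrocytes 0.12 (5 of 6). Leukocyte PTPRC and CD68 and erythrocyte AHSP, GYPC and HBA were above background on every array in both conditions, the other tested markers of these 2 lists were not. ACTA2 had a log2 ratio of 0.48 with levels that did not overlap, from slide means of -0.10 with cetrorelix in Cy5 and 1.06 with the dyes swapped.

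A gene was tested where its probe was above background on at least 3 arrays in either condition, and the brightest tested probe stood for a gene with several. Of the 65 genes, 58 had a tested probe. They comprised 7 of 9 acetylases and acetylase subunits, 20 of 22 deacetylases and deacetylase subunits, 23 of 25 remodellers and 8 of 9 others. The acetylases KAT2B and ING3, the deacetylase HDAC3, the SIN3 subunit ARID4A, the remodellers CHD5 and CHD7, and ARID5A were too dim. SMARCC1 (3 arrays in cetrorelix cells, 0 in controls) and SMARCD3 (3 and 2) passed through cetrorelix cells alone, and 34 of the 58 genes were above background on every array in both conditions.

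None of the 58 genes passed the limma test at adjusted p under 0.05, where 1 of 12400 tested genes did (0.00806%). In a fit over 6 single arrays with the replicate number as a random effect, 2 of them were called, beside 84 probes lower and 150 higher of 32125. The block correlation in that fit was -0.03, so it counted the 2 arrays of a replicate nearly as independent. The median log2 ratio of the 58 genes was -0.05, against -0.01 for all tested genes, with values from -1.11 to 0.75, and 34 of 58 lay below 0 against a background of 51.8%. On 6 of 6 arrays, 7 lay below 0 (5.75% of all tested genes did) and 2 above 0 (4.01%). The levels of the 3 replicates did not overlap between conditions for 12 genes with cetrorelix cells lower (9.47% of all tested genes) and 5 with cetrorelix cells higher (6.63%). At an unadjusted p under 0.05, 11 were lower (8.55% of all tested genes were) and 4 were higher (7.18%). Without replicate 2 these counts were 6 lower and 3 higher, and without replicate 1 they were 8 lower and 2 higher, where the shares of all tested genes were 5.60% and 5.85% without replicate 2 and 5.42% and 5.13% without replicate 1. With replicate 2 read from its array with cetrorelix in Cy3 alone, an alternative chosen after the data were seen, they were 9 and 3, beside 6.31% and 5.43% of all tested genes. In a bulk sample, fewer cells of a type and less RNA per cell cannot be told apart.

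**Figure D1:**
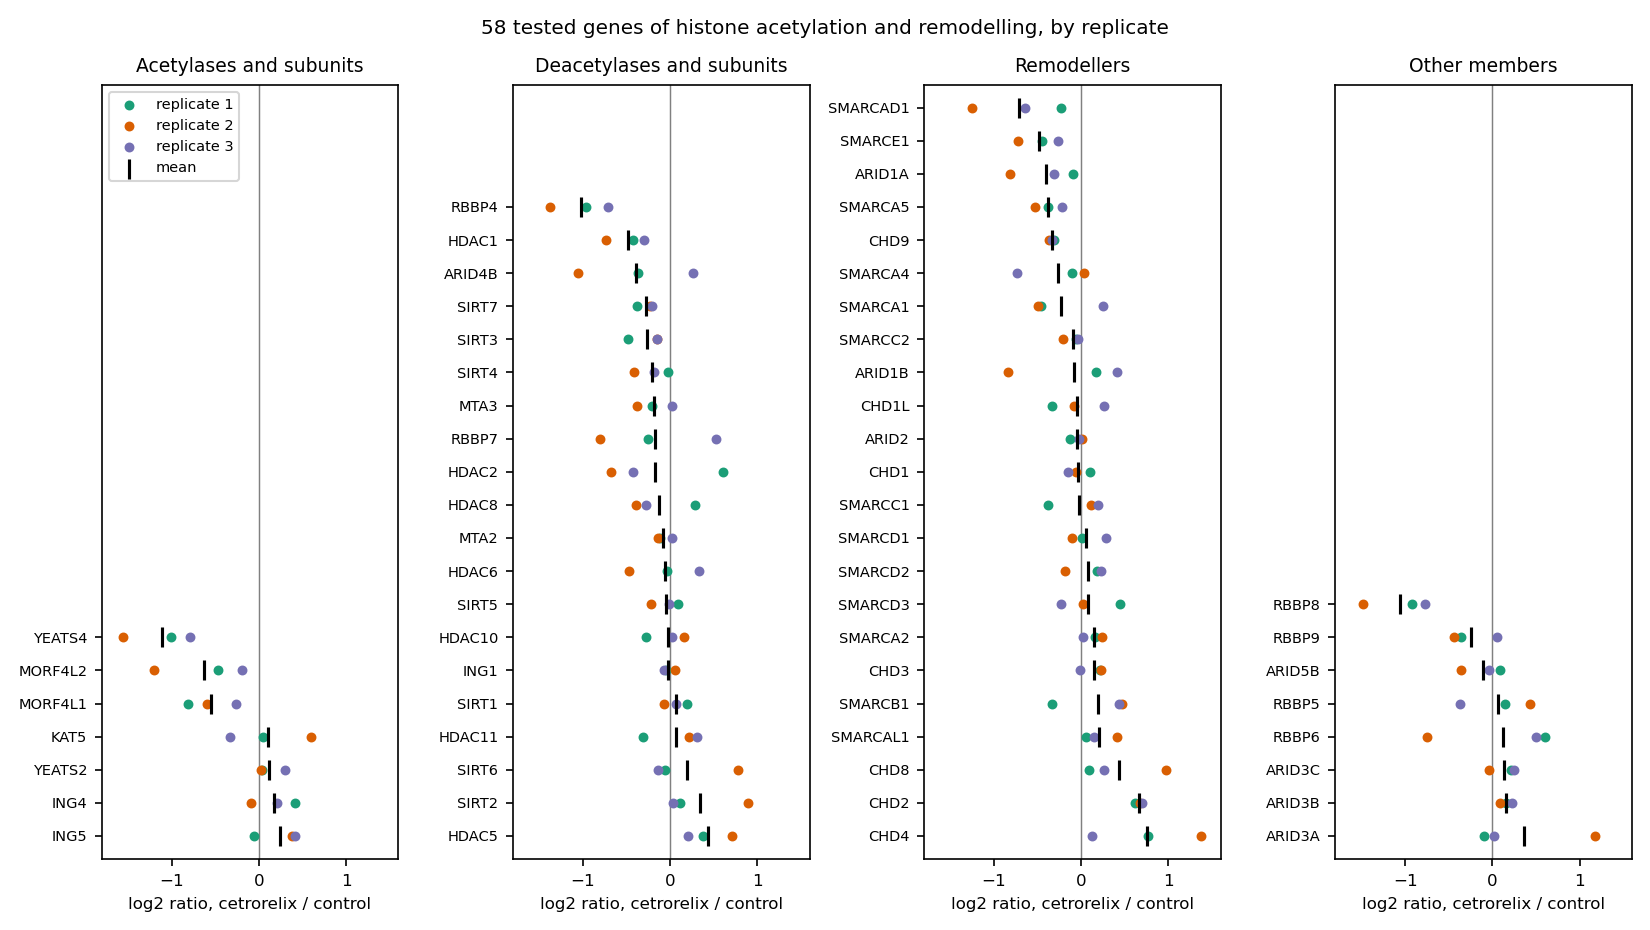
Log2 ratio (cetrorelix over control, horizontal axis) of the 58 tested genes in each of 3 replicates (coloured points) with their mean (black bar), in panels by role. YEATS4, RBBP4 and RBBP8 stand at the far left in their panels with all 3 replicates below 0, and CHD2 and CHD4 stand at the far right among the remodellers.

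The acetylase group held the lowest member of the set. YEATS4 is a YEATS-domain reader of acylated histone H3, shared by the TIP60/NuA4 acetylase and the SRCAP remodeller that places the histone variant H2A.Z. Its normalized log2 intensity was 10.57, 11.16 and 11.22 in cetrorelix cells of replicates 1, 2 and 3, against 11.57, 12.72 and 12.01 in control cells. All 3 cetrorelix values lay below all 3 control values. The log2 ratio was -1.11 ± 0.39 (SD, n = 3), or 2.16-fold lower after cetrorelix, and it was below 0 on 6 of 6 arrays. Arrays with cetrorelix in Cy5 gave -0.78, -0.79 and -0.29, and those of the swapped dyes gave -1.22, -2.32 and -1.28. The slide means of -0.62 and -1.61 differed (limma on the difference within replicates, adjusted p = 0.00328), so the size of the YEATS4 ratio depended on the slide.

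The MRG-domain subunits of the same acetylase lay on the same side. MORF4L1, a chromodomain reader of methylated histone H3 found in TIP60/NuA4 and SIN3, had log2 ratios of -0.81, -0.59 and -0.26 in replicates 1, 2 and 3. Its close paralog MORF4L2 had -0.47, -1.21 and -0.19. In each gene 5 of 6 arrays lay below 0 and the levels of the conditions did not overlap. The slides differed for MORF4L1, at -0.18 with cetrorelix in Cy5 and -0.93 with the dyes swapped (limma adjusted p = 0.0423).

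The other measured acetylase genes had means between 0.10 and 0.24. KAT5, the catalytic subunit TIP60 itself, had a log2 ratio of 0.10 ± 0.47, and its replicates of 0.04, 0.60 and -0.33 stood on both sides of 0. ING4 and ING5, the reader subunits of HBO1-type complexes, had 0.18 ± 0.26 and 0.24 ± 0.26. YEATS2, the paralog of YEATS4 in the ATAC acetylase, had 8.52, 8.57 and 8.41 in cetrorelix cells, against 8.49, 8.54 and 8.11 in control cells. Its log2 ratio was 0.12 ± 0.15, and the groups overlapped. The log2 ratio of YEATS4 lay below that of YEATS2 in every replicate, by -1.04, -1.58 and -1.08. YEATS2 was the dimmer of the pair, with a mean log2 intensity of 8.42 against 11.53 for YEATS4. It was above background on 6 arrays in cetrorelix cells and 5 in controls, ING4 on 4 and 5, and ING5 on 5 and 4. The part of low intensity in these ratios was not tested. The median over the 7 genes was 0.10 while the replicate medians were -0.06, -0.09 and -0.19, so the median of this small group had no stable sign.

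Among deacetylase complex subunits, RBBP4 was lowest. RBBP4 is a WD-repeat histone chaperone that carries histone H4 in SIN3, NuRD, the Polycomb complex PRC2 and the chromatin assembly factor CAF-1. Its normalized log2 intensity was 10.23, 9.99 and 10.24 in cetrorelix cells, against 11.19, 11.36 and 10.95 in control cells, with no overlap. The log2 ratio was -1.02 ± 0.34 (SD, n = 3), or 2.02-fold lower after cetrorelix, and below 0 on 6 of 6 arrays. The arrays gave -0.95, -1.01 and -0.21 with cetrorelix in Cy5 and -0.98, -1.74 and -1.21 with the dyes swapped. The array of replicate 3 with cetrorelix in Cy5 thus gave the smallest value for RBBP4, as it did for YEATS4.

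RBBP7, the near-identical paralog that shares SIN3, NuRD and PRC2 with RBBP4, had conditions that overlapped. Its levels were 10.82, 10.20 and 10.89 in cetrorelix cells and 11.07, 11.01 and 10.36 in control cells. Its log2 ratio was -0.18 ± 0.67, with replicates at -0.26, -0.80 and 0.53. The slide means of RBBP7 were 0.26 with cetrorelix in Cy5 and -0.61 with the dyes swapped, which differed (limma adjusted p = 0.0123). The log2 ratio of RBBP4 lay below that of RBBP7 by -0.71, -0.57 and -1.24 in the 3 replicates, a mean difference of -0.84 ± 0.35. Whether either probe also binds the transcript of the other paralog was not tested.

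The remaining subunits of deacetylase complexes had means below 0 when read from the brightest probe. ARID4B of SIN3 had a log2 ratio of -0.39 ± 0.66, with slide means of 0.25 and -1.03 that differed (limma adjusted p = 5.17e-05). Its 2 dimmer probes lay on the other side of 0, at 0.12 ± 0.19 and 0.21 ± 0.12. The NuRD subunits MTA2 and MTA3 had -0.08 ± 0.09 and -0.19 ± 0.20, and ING1, a SIN3 reader, had -0.02 ± 0.07. MTA2, MTA3 and ING1 were dim, above background on 5, 4 and 3 arrays in cetrorelix cells and 6, 6 and 4 in controls. All 6 measured subunits, RBBP4 and RBBP7 included, thus had a mean below 0 by that reading, where 51.8% of all tested genes did. Their replicate medians were -0.23, -0.59 and 0.02, so the median of replicate 3 did not share the direction. RBBP4 alone was below 0 on 6 of 6 arrays.

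**Figure D2:**
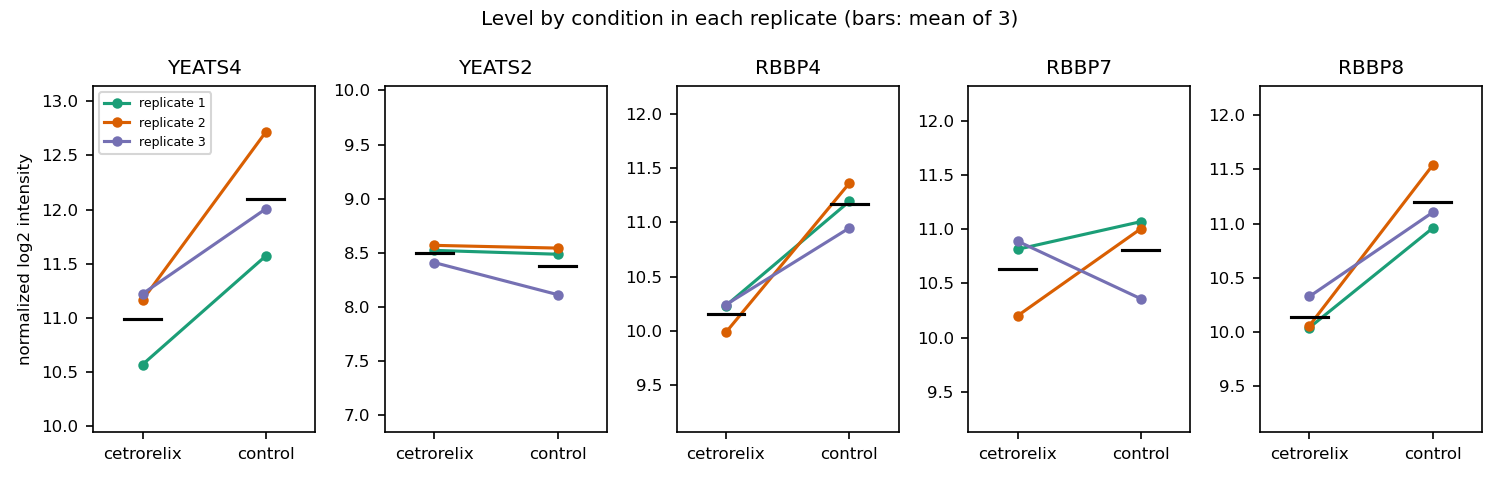
Normalized log2 intensity (vertical axis, 1 probe per gene) of YEATS4, YEATS2, RBBP4, RBBP7 and RBBP8 in cetrorelix cells (left) and control cells (right) of each replicate (coloured lines), with the mean of 3 (black bars). The lines of YEATS4, RBBP4 and RBBP8 run upward to the control in all 3 replicates, while the conditions of YEATS2 overlap and RBBP7 runs both ways.

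The zinc-dependent deacetylase enzymes had means between -0.48 and 0.44. HDAC1, the catalytic subunit of SIN3, NuRD and CoREST, had log2 ratios of -0.43, -0.73 and -0.29 in the 3 replicates, averaging -0.48. Its levels were 9.39, 9.29 and 9.57 in cetrorelix cells and 9.81, 10.03 and 9.86 in control cells, without overlap. HDAC1 was lower on 5 of 6 arrays, with slide means of -0.81 with cetrorelix in Cy5 and -0.16 with the dyes swapped. HDAC2, its paralog in the same complexes, had -0.17 ± 0.68 with replicates at 0.60, -0.68 and -0.43. HDAC5, a class II deacetylase that shuttles between nucleus and cytoplasm, lay on the other side with 0.38, 0.71 and 0.21, and was above 0 on 6 of 6 arrays.

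Among the other HDACs, HDAC8 had a mean of -0.12 ± 0.36 made of opposite slide values, 0.58 with cetrorelix in Cy5 and -0.83 with the dyes swapped (limma adjusted p = 4.13e-06). HDAC6, which deacetylates tubulin, had -0.06 ± 0.40. HDAC10, known as a polyamine deacetylase, and HDAC11 had -0.03 ± 0.22 and 0.07 ± 0.34.

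All 7 sirtuins were measured and their means stayed between -0.27 and 0.35. The nucleolar SIRT7 had the lowest mean with -0.37, -0.23 and -0.21 in the replicates and 6 of 6 arrays below 0, but its second, dimmer probe lay at 0.11 ± 0.22. The mitochondrial sirtuins SIRT3, SIRT4 and SIRT5 had -0.26 ± 0.20, -0.21 ± 0.19 and -0.05 ± 0.16. SIRT1 and SIRT6, nuclear deacetylases, had 0.07 ± 0.13 and 0.19 ± 0.51. SIRT2, mainly cytoplasmic, had the highest mean at 0.35 ± 0.47, from slide means of -0.33 and 1.02 (limma adjusted p = 1.37e-05). Levels of the conditions did not overlap for SIRT3, SIRT4 and SIRT7, all lower, as for 9.47% of all tested genes. However, SIRT3 was lower on 3 of 6 arrays only. SIRT4 was dim, with 4 cetrorelix channels and 6 control channels over the background limit. At an unadjusted limma p under 0.05, 0 of the 7 sirtuins were lower and 0 were higher.

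The SWI/SNF and CHD families had genes on both sides of 0, while the ISWI ATPases SMARCA5 and SMARCA1 had means below it. The 7 CHD genes had a median log2 ratio of 0.14, with 3 below 0 and 4 above. They held the 3 remodellers that were higher at an unadjusted p under 0.05 (7.18% of all tested genes were). They also held CHD9, which was lower (8.55% of all tested genes were). CHD4, the main ATPase of NuRD, had 11.50, 11.85 and 11.02 in cetrorelix cells, against 10.73, 10.48 and 10.90 in control cells. Its log2 ratios were 0.77, 1.37 and 0.12, or 1.69-fold higher on average, and 5 of 6 arrays lay above 0. CHD4 and RBBP4, subunits of one complex, therefore had log2 ratios of opposite sign in every replicate.

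CHD2, a remodeller of transcribed chromatin that places the variant histone H3.3, gave the most even values of the higher members. Its levels were 8.86, 8.40 and 8.80 in cetrorelix cells and 8.25, 7.73 and 8.11 in control cells. The log2 ratios of 0.62, 0.67 and 0.69 averaged 0.66 ± 0.04, or 1.58-fold higher after cetrorelix. CHD2 was the only member higher on 6 of 6 arrays by at least 1.5-fold (1.98% of all tested genes were), although single arrays ranged from 0.08 to 1.31 and 1 of 6 control values was not above background. YEATS4, RBBP4 and RBBP8 were the 3 members lower by that criterion, which 2.17% of all tested genes met. Just outside it, CHD4, SMARCAD1 and MORF4L2 passed the fold but had the sign on 5 of 6 arrays, and SMARCE1 had it on 6 of 6 arrays at a smaller log2 ratio of -0.48.

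CHD8, known as an antagonist of beta-catenin signalling, had log2 ratios of 0.09, 0.97 and 0.26, so replicate 2 carried most of its mean of 0.44. It lay above 0 on 4 of 6 arrays. CHD9 was lower with -0.31, -0.36 and -0.33 in the replicates and on 6 of 6 arrays, but its second probe lay at -0.07 ± 0.36. CHD3, the other NuRD ATPase measured, had 0.14 ± 0.13, and CHD1 and CHD1L had -0.04 ± 0.13 and -0.05 ± 0.30.

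All 12 listed SWI/SNF subunits were measured, with a median of -0.04. SMARCE1, an HMG-box subunit, had log2 ratios of -0.45, -0.73 and -0.27 and was below 0 on 6 of 6 arrays. Its 2 other probes went the other way, at 0.41 ± 0.57 and 0.11 ± 0.25, and the first of these is nearly as bright as the probe read. ARID1A, the large DNA-binding subunit, had -0.10, -0.82 and -0.31 and was also below 0 on 6 of 6 arrays, with a dim second probe at 0.07 ± 0.19. The alternative ATPases SMARCA4 and SMARCA2 had -0.27 ± 0.41 and 0.14 ± 0.11, where SMARCA2 had slide means of 0.57 and -0.28 (limma adjusted p = 0.0154). The core subunits SMARCB1 and SMARCC2 had 0.19 ± 0.46 and -0.10 ± 0.09, and for SMARCC1 the control channel was not above background on any array. ARID1B, ARID2, SMARCD1, SMARCD2 and SMARCD3 lay between -0.08 and 0.08.

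Of the ISWI ATPases, SMARCA5, which spaces nucleosomes, had log2 ratios of -0.38, -0.53 and -0.23, and SMARCA1 had -0.23 ± 0.42. SMARCAD1, a remodeller known to act in DNA end resection and in restoring heterochromatin after replication, had the lowest mean of the remodellers. Its levels were 10.88, 10.09 and 10.75 in cetrorelix cells and 11.11, 11.34 and 11.40 in control cells, without overlap. Its log2 ratios of -0.23, -1.25 and -0.64 averaged -0.71 ± 0.51, or 1.64-fold lower after cetrorelix, on 5 of 6 arrays. SMARCAL1, an annealing helicase of stalled replication forks, had 0.21 ± 0.18.

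RBBP8 shares its name prefix with RBBP4 but not its fold. It encodes CtIP, which starts DNA end resection with the MRE11 nuclease complex and binds the retinoblastoma protein. Its normalized log2 intensity was 10.04, 10.06 and 10.33 in cetrorelix cells, against 10.96, 11.54 and 11.10 in control cells, without overlap. The log2 ratio was -1.06 ± 0.37 (SD, n = 3), or 2.08-fold lower after cetrorelix, and below 0 on 6 of 6 arrays. The arrays gave log2 ratios for RBBP8 of -1.04, -1.43 and -1.01 with cetrorelix in Cy5 and -0.79, -1.54 and -0.54 with the dyes swapped. The slide means of -1.16 and -0.96 did not pass the test of their difference (limma adjusted p = 0.725).

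The other RBBP and ARID genes had means between -0.25 and 0.36, several with replicates on both sides of 0. RBBP5, a subunit of histone H3 methyltransferase complexes, had 0.07 ± 0.41, RBBP6, a ubiquitin ligase, had 0.12 ± 0.75 with replicates at 0.60, -0.75 and 0.50, and RBBP9, a serine hydrolase, had -0.25 ± 0.27. The DNA-binding factors ARID3A, ARID3B, ARID3C and ARID5B lay between -0.11 and 0.36, and the highest, ARID3A, had replicates at -0.09, 1.17 and 0.01.

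YEATS4, RBBP4 and RBBP8 shared their order of replicates. Replicate 2 was lowest in each, at -1.55, -1.38 and -1.48, and replicate 3 was nearest to 0, at -0.78, -0.71 and -0.78. The SD of the log2 ratios over the 58 genes followed the same order, at 0.378, 0.641 and 0.335 in replicates 1, 2 and 3. Over all tested genes it was 0.356, 0.557 and 0.313, so replicate 2 was wide across the whole array. Each of the 3 genes has a single probe, above background on every array in both conditions, and 0 of the 84 tested probes of the set were saturated. Among the 18 member genes with several tested probes, 11 had probes on both sides of 0, and their probes differed by 0.03 to 0.89.

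The slides were compared within replicates. The log2 ratio differed between slides for 11 of the 58 genes at limma adjusted p under 0.05, against a background of 12.7% of all tested genes. One of them, SMARCC1, has a control channel that was not above background on any array. Every array of one slide lay above 0 and every array of the other below it for 7 of the 58 genes, against 8.91% of all tested genes. The 3 named genes were below 0 on each slide.

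**Figure D3:**
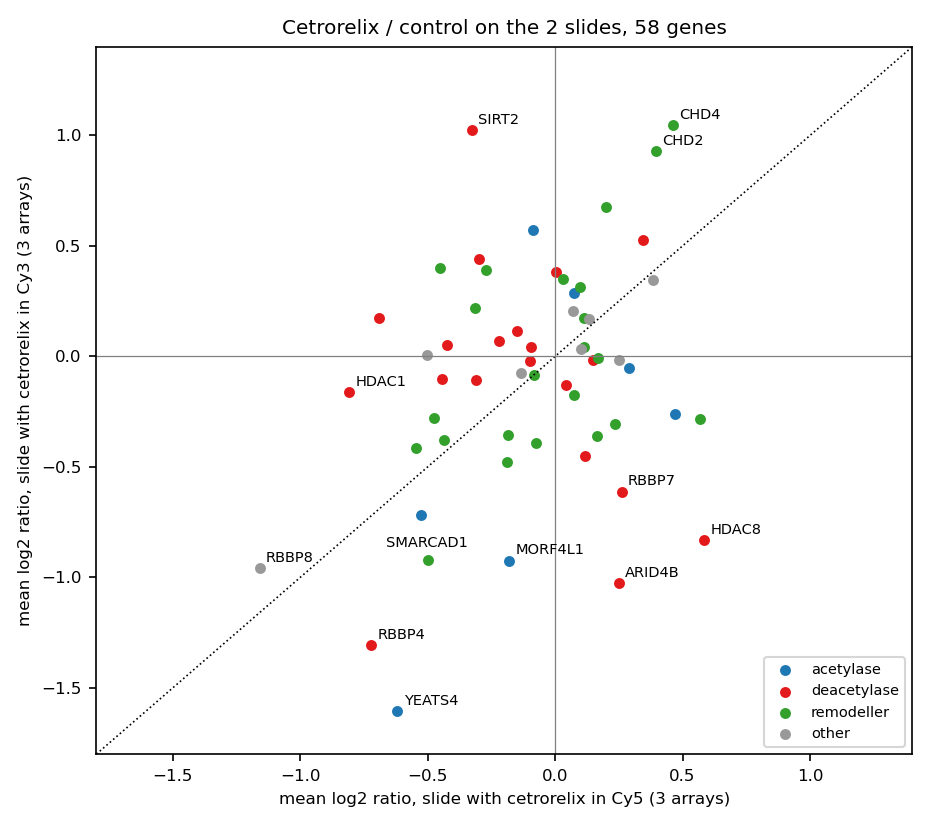
Mean log2 ratio (cetrorelix over control) of the 58 genes on the Cy5-cetrorelix slide (horizontal axis) and the Cy3-cetrorelix slide (vertical axis), coloured by role, with the line of equal values dotted. YEATS4, RBBP4 and RBBP8 lie in the lower left, CHD2 and CHD4 in the upper right, and HDAC8, ARID4B and SIRT2 lie off the line with opposite signs.

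Partner genes of these complexes that are not members were listed by complex, and 111 of them were tested. Their median log2 ratio was -0.06, 62 lay below 0 (51.8% of all tested genes did), and 0 passed the adjusted limma test. At an unadjusted p under 0.05, 17 were lower (8.55% of all tested genes) and 6 higher (7.18%). Of these, 12 of the lower and 4 of the higher had the same sign on 6 of 6 arrays, which with the same p held for 4.36% and 3.04% of all tested genes. The highest was USP22, the ubiquitin protease of the SAGA acetylase, at 1.33 ± 0.32, with slide means of 1.35 and 1.32. Its cofactor ATXN7L3 lay at 0.45 ± 0.25, whereas the SAGA subunits TAF12 and SUPT20H lay at -0.65 ± 0.34 and -0.37 ± 0.06.

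The partners of RBBP4 were read complex by complex. The 12 listed genes of PRC2, CAF-1 and RB1 had a median of 0.01, and 5 lay below 0. EED, the WD-repeat subunit of PRC2, was lowest with -0.55, -0.79 and -0.64, though its dimmer second probe lay at -0.13. The methyltransferase EZH2 had 0.00 ± 0.35, SUZ12 had 0.22 ± 0.54, and the CAF-1 subunits CHAF1A and CHAF1B had 0.01 ± 0.05 and 0.03 ± 0.21. The 3 measured NuRD partners had a median of 0.01, with CDK2AP1 at -0.47 ± 0.20 (second probe -0.11 ± 0.37) and MBD3 at 0.02 ± 0.09. The 6 SIN3 partners had a median of -0.29 with 5 below 0 and 2 lower at unadjusted p (8.55% of all tested genes were). The lowest, BRMS1L at -0.73 ± 0.48, had 4 probes between -0.73 and 0.30.

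The partners of YEATS4 in NuA4 and SRCAP lay on both sides of 0, 6 below and 6 above, with a median of -0.01 over 12 genes. The scaffold EP400 had 0.21 ± 0.15, the ATPases RUVBL1 and RUVBL2 had 0.36 ± 0.56 and 0.09 ± 0.34, and DMAP1 had 0.57 ± 0.59. The partners of RBBP8 in DNA end resection lay mostly below 0, 9 of 10 genes (51.8% of all tested genes did) with a median of -0.30. At an unadjusted limma p under 0.05, 3 of the 10 were lower (8.55% of all tested genes were). The replicate medians over the 10 genes were -0.34, -0.70 and 0.07, so replicate 3 did not share the direction. RAD50 of the MRE11 complex had -0.74 ± 0.52, with slide means of -0.12 and -1.36, RPA3 of the single-strand binding complex had -0.57 ± 0.29 and the helicase BLM had -0.49 ± 0.25, while the nuclease MRE11 had -0.28 ± 0.56 and NBN 0.08 ± 0.46.

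In the SWI/SNF and ISWI lists the partners also divided. DPF2 and BRD7 lay at -0.59 ± 0.16 and -0.65 ± 0.54 and PBRM1 at 0.38 ± 0.08. The ISWI partners CHRAC1 and BPTF lay at -0.81 ± 0.28 and -0.53 ± 0.23 and BAZ1B at 0.60 ± 0.37, while INO80, the ATPase of its own complex, lay at -0.48 ± 0.24. The second probes of DPF2 and PBRM1 lay at -0.07 and 0.01, and the other probes of BAZ1B at 0.55 and -0.08. The 8 partners of MOZ, HBO1, MSL and NSL had a median of 0.08, the 8 of CoREST and NCoR had 0.00 and the 8 of INO80 had -0.06. The 4 readers of the BET and MLLT families had -0.12. A list of the p300 family, NCOA coactivators and other acetylases had -0.18 over 6 genes. The lowest of that list, the acetylase HAT1 at -0.81 ± 1.06, is not of the p300 family and had replicates on both sides of 0.

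**Figure D4:**
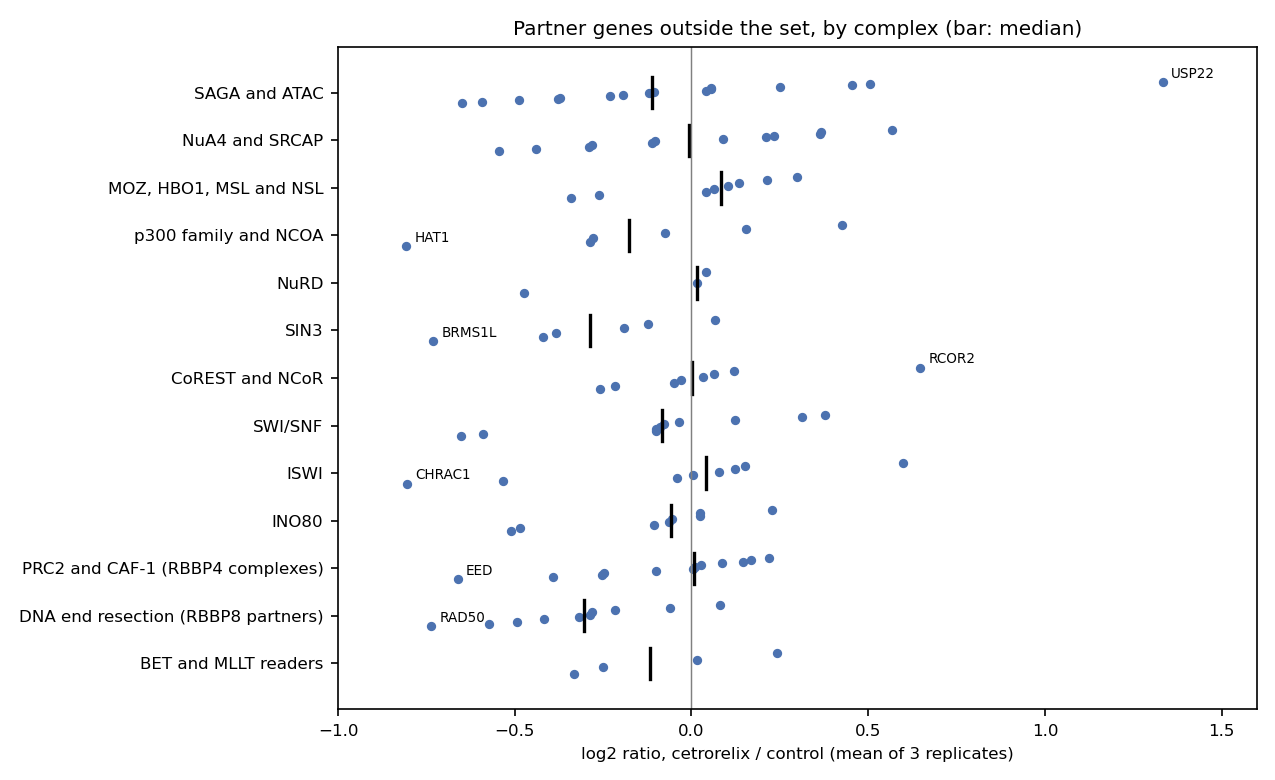
Mean log2 ratio (cetrorelix over control, horizontal axis) of tested partner genes that are not members, by complex (rows), with the median of each list as a black bar. Every list has genes on both sides of 0, USP22 stands alone at the right, and 9 of 10 end resection genes lie left of 0 (51.8% of all tested genes do).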

How the data were processed

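Per the file headers, the deposited scanner tables hold the raw median intensity and median local background intensity of each spot in the Cy5 and Cy3 lasers. The authors also deposited log2 ratios per array. Of tools, limma is named in the submitters' processing notes, without settings. Set against the scanner values, these log2 values ran as cetrorelix over control on each array (r between 0.842 and 0.996), with column medians between -0.03 and 0.01. The sources used here do not give the authors' normalization.

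Marked spots were left out. Background was corrected with normexp (offset 50) and ratios normalized by loess within arrays, with control spots at weight 0. A channel was above background over the 95th percentile of 153 negative controls. Of 32358 probes that passed, 32125 had a value on every array. The number of arrays limits the precision. Replicate averages were tested against 0 with limma 3.58.1 (R 4.3.3), two-sided, and adjusted by Benjamini-Hochberg across the tested probes. Levels by condition also had Aquantile scaling between arrays. The test of slides used the difference between the 2 arrays of a replicate. The fit was tested on simulated data.

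The numbers paired the arrays: after removal of slide means, arrays with the same number correlated at 0.229, 0.402 and 0.422. Of 21790 probes with a symbol, 20025 had one current in the ARS-UCD2.0 gene table, 1524 matched a synonym and 241 were kept. The members and lists were chosen with earlier results of these data known. Named were RBBP4, RBBP8 and YEATS4, the paralogs RBBP7 and YEATS2, every member by role (all replicates where unadjusted p was under 0.05), and partners with unadjusted p under 0.05 and the same sign on 6 of 6 arrays, with other partners as examples chosen after their values were seen. Alternatives covered background, normalization, filter, probes, deposited values, block, slide and each replicate.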

Additional observations from a re-analysis of the deposited data

Results flagged for a closer look

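For 11 member genes the log2 ratio differed between the 2 slides by limma on the difference within replicates, adjusted over all tested probes. This was 11 of 58, beside 12.7% of all tested genes, and slide cannot be told apart from dye orientation. With cetrorelix in Cy5 and in Cy3, HDAC8 had 0.58 and -0.83, SIRT2 had -0.33 and 1.02, ARID4B had 0.25 and -1.03, and YEATS4 had -0.62 and -1.61. In the same order RBBP7 had 0.26 and -0.61, SIRT3 had -0.69 and 0.17, SMARCC1 had -0.45 and 0.40, and SMARCA2 had 0.57 and -0.28. MORF4L1 had -0.18 and -0.93, HDAC11 had -0.30 and 0.44, and KAT5 had 0.47 and -0.26. The ratios of SMARCC1 are to a control channel that was not above background on any array. YEATS4 and MORF4L1 kept their sign on both slides, and the other 9 genes did not.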

How the results depend on the processing

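Under 15 alternatives the log2 ratios of RBBP4 and RBBP8 stayed below 0 and within 1 SD of the value above, from -1.31 to -0.72 and from -1.20 to -0.85. YEATS4 ranged from -1.61 to -0.62, the values of the single slides. With a random replicate block and 6 single arrays, 12 member genes were lower and 4 higher at unadjusted p. Of all tested genes, 9.99% and 7.46% were. At limma adjusted p under 0.05 that fit called 2 members, RBBP4 and RBBP8, with 84 lower and 150 higher of all 32125 probes, where the replicate averages gave 0 and 4. It changes the unit from averages to arrays as well as adding the block. The block correlation was -0.03, so the arrays of a replicate counted nearly as independent. A slide term over 6 arrays, which counts the arrays of a replicate as independent, called 7 members and 500 lower and 595 higher probes. Without replicate 1 there were 0 members and 0 probes, without replicate 2 there were 3 members and 110 lower and 275 higher probes, and without replicate 3 there were 5 members and 550 and 710 probes. As the members were chosen on this ratio, these counts describe the settings. Leaving out each replicate gave 6 to 12 members lower and 2 to 5 higher at unadjusted p. The shares of all tested genes were then 5.42% to 10.9% lower and 5.13% to 9.03% higher. Counting only genes above background on every array left 34 members, with 8 lower and 1 higher (10.1% of all tested genes each way) and a median of -0.17 over members, -0.59 over acetylases and -0.085 over remodellers. Of the acetylase group it kept YEATS4, MORF4L1 and MORF4L2, all below 0, and KAT5, above 0. It left out YEATS2, ING4 and ING5, all above 0. On the slide with cetrorelix in Cy5 alone, 2 were higher (6.75% of all tested genes were). The medians there were -0.085 for acetylases and 0.030 for remodellers, and on the other slide -0.26 and -0.087. The acetylase median was -0.032 under median centring without loess, 0.030 with no filter and -0.15 to 0.060 with a replicate left out. With 1 array for replicate 2 the acetylase and remodeller medians were -0.085 and -0.11, and with a gene's probes averaged the remodeller median was 0.013. Beyond which acetylase genes that filter kept, the cause of these shifts was not tested. The deacetylase median was -0.10, with replicate medians of -0.09, -0.23 and 0.01, so replicate 3 did not share the direction. Under the 15 alternatives it lay between -0.17 and -0.02. The value nearest 0 was that of the slide with cetrorelix in Cy3 alone, where all tested genes had a median of -0.002. Under median centring, 11.5% of all tested genes were lower and 5.39% higher at unadjusted p, against 8.55% and 7.18% with loess.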

Other observations

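Acetylases that the array lists under older symbols fell outside the rule. MYST1, now KAT8, the acetylase of the MSL and NSL complexes, had a log2 ratio of -0.04 ± 0.36, with replicates at -0.03, 0.30 and -0.41. The brighter tested probe of MYST2, now KAT7, the HBO1 acetylase, had -0.06 ± 0.15, and its other tested probe had 0.01 ± 0.21. The brighter probe lay at -0.37, -0.66 and -0.70 in the Cy5-cetrorelix arrays, against 0.59, 0.37 and 0.38 in the Cy3-cetrorelix arrays.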
